A study of Homo sapiens with 4 samples.

Results

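The proteins released into the medium by U937 cells under cytarabine were set against those released with PBS, on 1 protein array for each condition, so 2 of the 4 arrays of the series were compared. U937 is a human line of monocytic character that is used as a model of acute myeloid leukaemia. Both cultures carried the empty retroviral vector and had been selected for stable expression. Neither held a fragment of TIFA, the adaptor of innate immune signalling that the series set out to block. The cytarabine culture had received 10 µM of the drug for 72 h; for the PBS culture the labels give neither dose nor time. Both media were cleared of cells by centrifugation. The other 2 arrays, from cells with the TIFA fragments F1F2 and F2F3 under the same drug, were used to set the floor described further on and once to place the levels. The series' title links TIFA to NF-kB and to resistance to chemotherapy, and this pair of arrays sets media with and without the drug side by side in cells without a fragment. An effect of the drug cannot be told apart from a difference in culture time or between the arrays.

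Every protein of the table was used except the identical rows TGF-beta and TNF-beta, which leaves 21 proteins. Each value is a spot intensity relative to the positive control of its own array, which is 1, with the negative control at 0. With 1 array a side there was no test: ranks, differences and ratios are descriptions of these media, and no spread between replicates was available. Different antibodies stand behind different spots, so a rank orders signals and not amounts of protein. The labels do not say how many cells were alive at collection. Fewer cells and less release per cell cannot be told apart in such media.

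Cytarabine is a nucleoside analogue that enters DNA and stops its synthesis. Damaged myeloid cells can answer through NF-kB, a family of transcription factors held in the cytoplasm until an upstream kinase complex frees it. Its known targets include inflammatory cytokines such as TNF-alpha and IL-6 and chemokines, the small secreted proteins that draw leukocytes to a site. TNF-alpha itself activates NF-kB through its receptors, and IL-6 signals through gp130 and STAT3.

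The upstream sequences of TNF, IL6 and CXCL1 are shown because these genes encode TNF-alpha, IL-6 and GRO-alpha, the NF-kB targets of the panel with the largest folds between the arrays. Each runs 5′ to 3′ over the 120 bases before the start of the gene, from RefSeq on GRCh38.p14, and capitals mark matches to a form of the NF-kB motif, GGG followed by any 2 bases and then TTTCC, which was searched on both strands of the 250 bases upstream. The TNF window is chr6:31575445-31575564 on the plus strand, the IL6 window chr7:22727080-22727199 on the plus strand, and the CXCL1 window chr4:73869273-73869392 on the plus strand.
TNF: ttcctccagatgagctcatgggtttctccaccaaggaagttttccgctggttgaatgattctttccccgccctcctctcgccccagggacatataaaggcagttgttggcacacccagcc
IL6: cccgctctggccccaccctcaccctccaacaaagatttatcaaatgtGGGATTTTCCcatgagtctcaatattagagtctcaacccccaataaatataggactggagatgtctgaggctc
CXCL1: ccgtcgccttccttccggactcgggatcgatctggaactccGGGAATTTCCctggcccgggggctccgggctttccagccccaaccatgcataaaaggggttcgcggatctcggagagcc

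The motif begins at position -73 in IL6 and at position -79 in CXCL1, counted from the start of the gene, and these letters are not in the TNF window. Of the 22 genes of the panel, 16 had an upstream sequence in the table, and 4 of them held the motif: IL6, CXCL1, CXCL2 and CXCL3. CXCL1, CXCL2 and CXCL3 are all assigned to the GRO spot. Of all 35116 upstream sequences, 1.73% held it, a share of sequences and not of genes. TNF, CXCL8, IL1B and CSF2, whose proteins are also NF-kB targets of the panel, held no match, so this motif and window do not mark all targets. A match is a description of the letters only; the arrays measured protein in medium and no binding of a factor.

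The largest differences were those of IL-6 and TNF-alpha, and they ran in opposite directions. TNF-alpha, the first signal of many inflammatory responses, read 0.871 with cytarabine and 0.467 with PBS, a difference of 0.404 and a ratio of 1.87-fold. IL-6, which drives the acute phase response and the growth of some blood cells, read 0.431 with cytarabine and 1.23 with PBS, a difference of -0.795 and a 2.84-fold lower signal. GRO came next, with a difference of 0.132. IL-6 with PBS lay above the positive control, and nothing in the labels shows whether so bright a signal was still in the linear range.

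**Figure D1:**
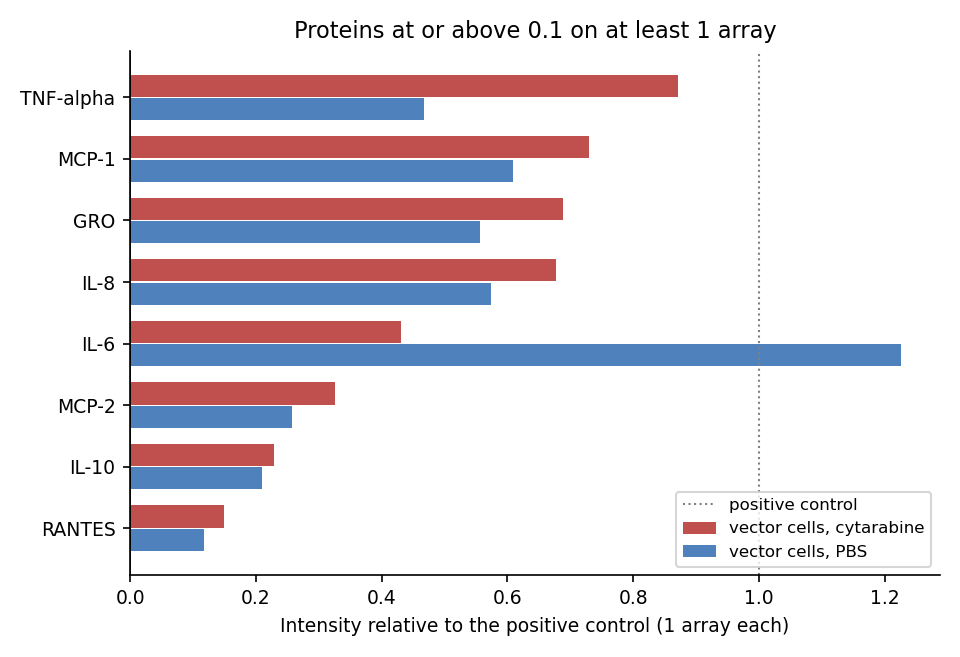
Intensity relative to the positive control (x axis) of the 8 proteins at or above 0.1, on the array of vector cells with cytarabine (red) and of vector cells with PBS (blue), 1 array each. TNF-alpha is brighter with cytarabine (0.871 against 0.467), IL-6 is dimmer (0.431 against 1.23), and the other 6 are slightly brighter as deposited, of which MCP-1, IL-8 and IL-10 turn when the bright proteins are centred.

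These proteins exchanged places in the order of signals. TNF-alpha ranked 1 of 21 with cytarabine and 5 with PBS, whereas IL-6 ranked 5 with cytarabine and 1 with PBS. MCP-1, MCP-2, IL-10 and RANTES held the same rank on both arrays, at 2, 6, 7 and 8. GRO ranked 3 with cytarabine and 4 with PBS, and IL-8 the reverse. GRO minus IL-8 was 0.0122 with cytarabine and -0.017 with PBS. Without replicates it is not known whether such gaps exceed the error of the spots, so no order of GRO and IL-8 was inferred.

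**Figure D2:**
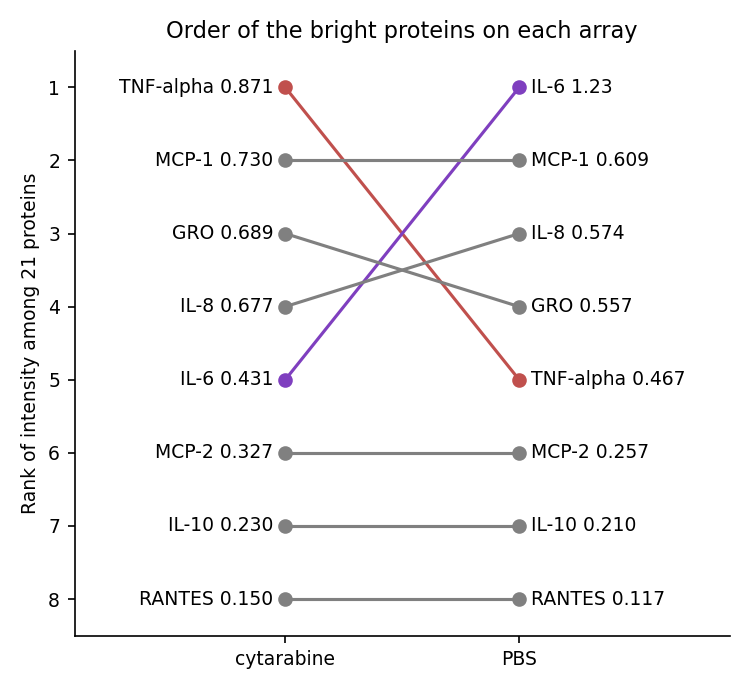
Rank of intensity among the 21 proteins (y axis, 1 is brightest) on the cytarabine array (left) and the PBS array (right) for the 8 proteins at or above 0.1, with the intensity printed beside each name. TNF-alpha and IL-6 exchange ranks 1 and 5, and the other lines are flat apart from GRO and IL-8.

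Because both proteins were read on the same arrays, their ratio does not depend on how an array is scaled. The TNF-alpha signal was 2.02 times that of IL-6 with cytarabine and 0.381 times with PBS, a 5.30-fold difference between the arrays. TNF-alpha was 1.29 times the IL-8 signal with cytarabine and 0.813 times with PBS. IL-6 was 0.638 times the IL-8 signal with cytarabine and 2.14 times with PBS. MCP-1 stood at 1.08 times IL-8 with cytarabine and 1.06 times with PBS. Thus TNF-alpha and IL-6 each moved relative to IL-8, a neutrophil attractant, by far more than MCP-1, a monocyte attractant, did.

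Shares of the summed signal show the same exchange. IL-6 made up 9.92% of the sum with cytarabine and 28.9% with PBS. TNF-alpha made up 20.0% with cytarabine and 11.0% with PBS. The sum itself was 4.35 with cytarabine and 4.24 with PBS, a ratio of 1.02. That near equality rests on IL-6: without it the sums were 3.92 with cytarabine and 3.02 with PBS, a ratio of 1.30, and without IL-6 and TNF-alpha they were 3.05 with cytarabine and 2.55 with PBS, a ratio of 1.19.

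**Figure D3:**
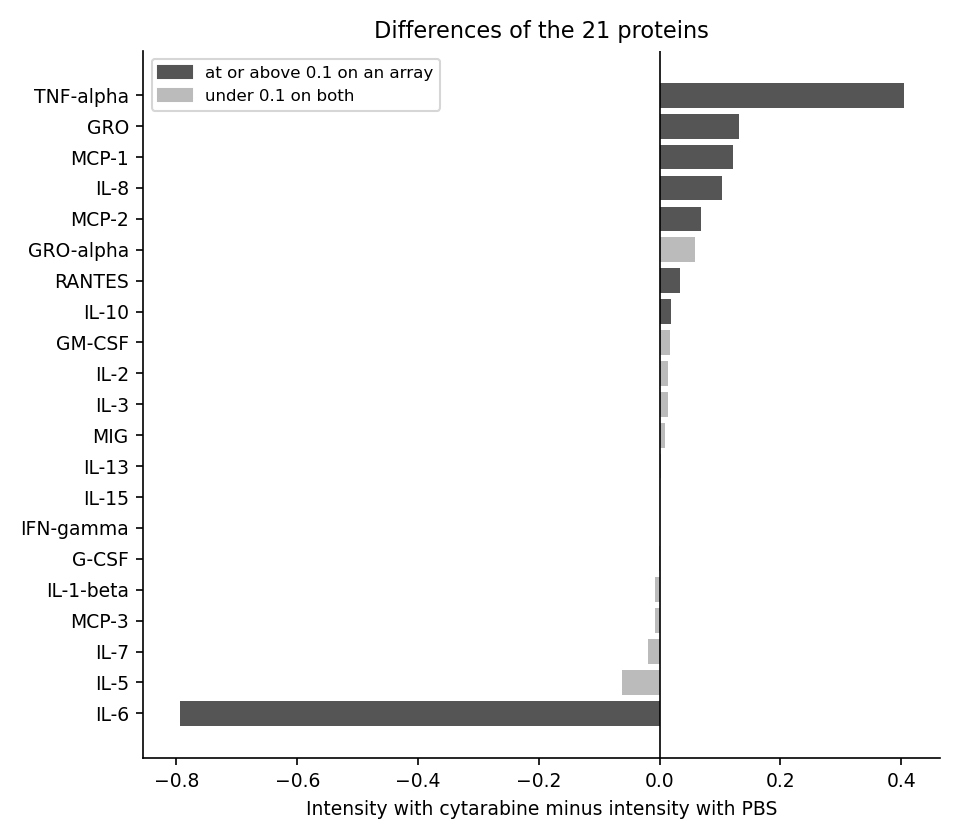
Intensity with cytarabine minus intensity with PBS (x axis) for each of the 21 proteins, ordered by the difference. Dark bars are proteins at or above 0.1 on an array and light bars those under 0.1 on both; IL-6 (-0.795) and TNF-alpha (0.404) lie at the ends.

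By the sign of the difference, 14 of the 21 proteins (66.7%) were higher with cytarabine and 7 were lower, as deposited; 11 were higher with the median log2 ratio of the bright proteins set to 0. For ratios, intensities below a floor of 0.00990, the 25th percentile over the protein rows of the 4 arrays, were set to the floor, which makes the ratio a lower bound. A ratio could be formed for 17 proteins, and 1.5-fold was used as the limit for a change. By it 3 proteins (17.6%) were higher with cytarabine, namely TNF-alpha, GRO-alpha and IL-3, and 4 (23.5%) were lower, namely IL-6, IL-5, IL-7 and IL-1-beta. Together these are 41.2% of the proteins with a ratio, whose median log2 ratio was 0.26. The nearest proteins to the limit were IL-3 at 1.69-fold on the inside and GM-CSF at 1.36-fold on the outside. Only TNF-alpha and IL-6 of the 7 reached 0.1 on an array.

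The remaining 6 bright proteins were 5 chemokines and IL-10, and each was higher with cytarabine as deposited by less than the limit, a direction that depends on the scaling for MCP-1, IL-8 and IL-10. GRO, the chemokines CXCL1 to CXCL3 by name, read 0.689 with cytarabine and 0.557 with PBS. IL-8 (CXCL8) read 0.677 with cytarabine and 0.574 with PBS. Both draw neutrophils through the receptor CXCR2. MCP-1 (CCL2) read 0.730 with cytarabine and 0.609 with PBS. MCP-2 (CCL8), which like MCP-1 draws monocytes, read 0.327 with cytarabine and 0.257 with PBS. RANTES (CCL5), which draws T cells and monocytes, read 0.150 with cytarabine and 0.117 with PBS. IL-10, which restrains the release of inflammatory cytokines by monocytes, read 0.230 with cytarabine and 0.210 with PBS.

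The folds of these 6 proteins lay close together. They ran from 1.09 for IL-10 to 1.28 for RANTES with a median of 1.22, and the highest was 1.18 times the lowest. Their intensities on the arrays had a Pearson correlation of 0.998 and a Spearman correlation of 0.943 across the 6 proteins, which share both arrays and are not replicates. Across all 8 bright proteins, with TNF-alpha and IL-6 included, these values were 0.377 and 0.595. If the median of the 8 log2 ratios is set to 0, a shift of -0.28, MCP-1, IL-8 and IL-10 turn to slightly lower with cytarabine, at log2 ratios of -0.022, -0.047 and -0.16, while GRO, MCP-2 and RANTES stay higher at 0.022, 0.059 and 0.075. Whether a common factor of the array or of the medium lies behind the 6 folds was not tested.

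Relative to those 6 proteins, TNF-alpha was still 1.53-fold higher, just past the limit, and IL-6 was 3.46-fold lower. The call for TNF-alpha would end if the cytarabine array read 1.24-fold too bright against the PBS array. The call for IL-6 would end if it read 1.89-fold too dim.

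**Figure D4:**
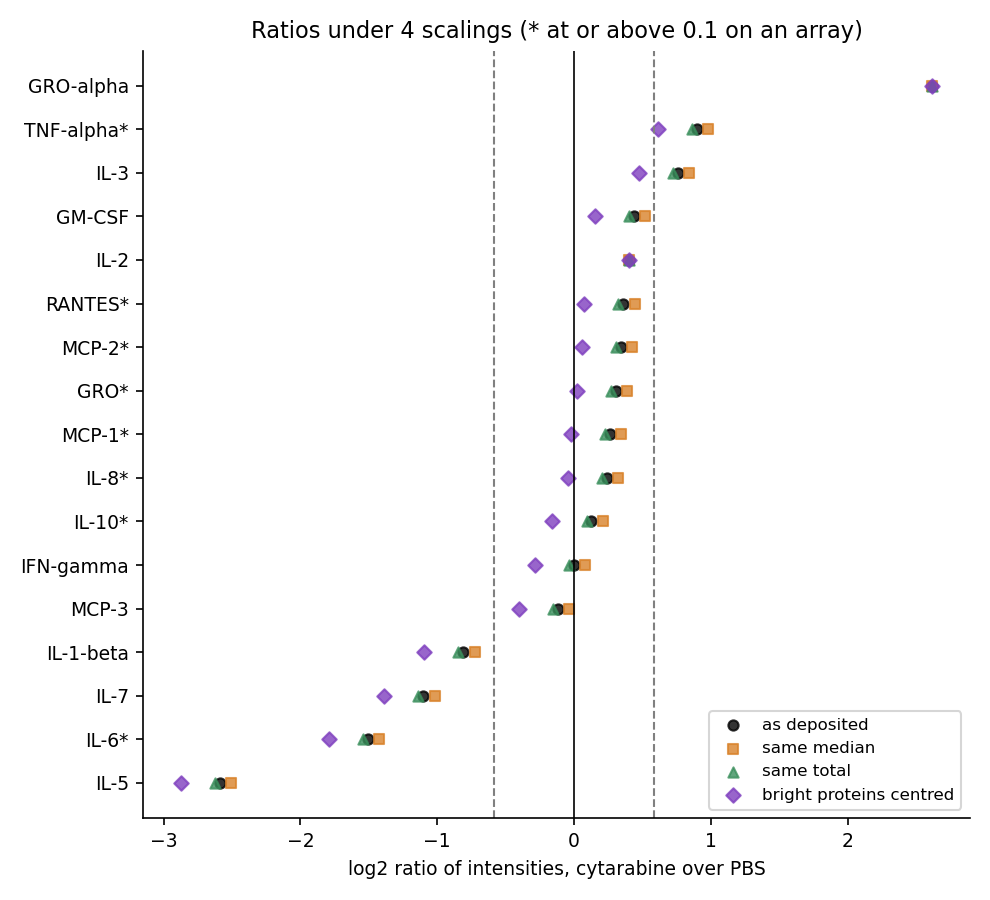
Log2 ratio of intensities, cytarabine over PBS (x axis), for the 17 proteins with a ratio, as deposited (circles) and with the arrays scaled to the same median (squares), to the same total (triangles) or with the bright proteins centred on 0 (diamonds). Dashed lines mark 1.5-fold and a star marks proteins at or above 0.1 on an array. IL-6, IL-5, IL-7 and IL-1-beta lie left of the lines and TNF-alpha right of them under each scaling. IL-3 falls inside the lines once the bright proteins are centred. GRO-alpha lies right of them, but its ratio and that of IL-2 could not move, because their PBS values stayed under the floor at each scaling.

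Set beside the fragment arrays, the cytarabine array of vector cells was the brightest of the 4 for 6 of the 8 bright proteins, namely TNF-alpha, IL-10, IL-8, GRO, MCP-2 and MCP-1. It was the dimmest for IL-6. Under the same drug, IL-6 read 1.47 with F1F2 and 1.29 with F2F3, both above the 1.23 of vector cells with PBS. TNF-alpha read 0.137 with F1F2 and 0.0824 with F2F3, both below the 0.467 of vector cells with PBS. Neither fragment array thus differed from the PBS array in the direction of the vector array for these proteins. RANTES was second to F2F3, at 0.150 with vector and cytarabine against 0.157. Over all 21 proteins the cytarabine array was the brightest of the 4 for 9 and the dimmest for 6, and over the 9 dim proteins with a ratio it was the brightest for 3 and the dimmest for 4. Among the bright proteins, the PBS array was the dimmest for RANTES and the brightest for none of the 8.

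The 13 dim proteins, under 0.1 on both arrays, carried 5.65% of the summed signal with cytarabine and 5.35% with PBS. Their absolute differences between the arrays had a median of 0.00944 and ranged up to 0.0618. IL-5 and GRO-alpha had the largest of these, and the other 11 did not exceed 0.0185. For scale, 3 proteins read below 0 with cytarabine and 5 with PBS, down to -0.00337 with cytarabine and -0.00519 with PBS. Of the 8 bright proteins, 6 differed by more than any dim one; RANTES, at 0.0331, and IL-10, at 0.0194, did not.

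**Figure D5:**
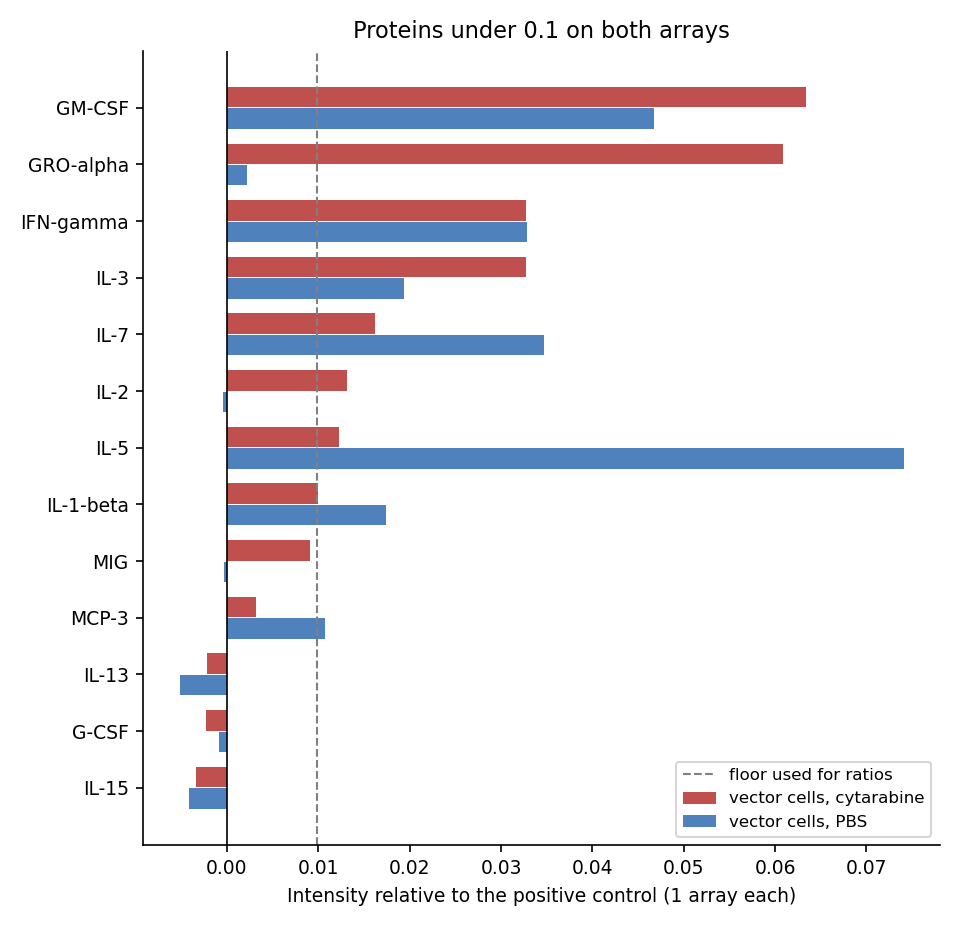
Intensity relative to the positive control (x axis) of the 13 proteins under 0.1, with cytarabine (red) and with PBS (blue), 1 array each; the dashed line is the floor of 0.00990 used for ratios. GRO-alpha is higher with cytarabine (0.0608 against 0.00224) and IL-5 is lower (0.0123 against 0.0741), and the other pairs differ by 0.0185 at most.

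GRO-alpha, the chemokine CXCL1 that also belongs to the GRO family, read 0.0608 with cytarabine and 0.00224 with PBS, at least 6.14-fold higher. It ranked 10 with cytarabine and 16 with PBS. GRO and GRO-alpha may detect the same protein in part, so they are not separate evidence. The difference was 0.0586 for GRO-alpha and 0.132 for GRO. MIG (CXCL9), the interferon-induced ligand of CXCR3, read 0.00909 with cytarabine and -0.000349 with PBS, both under the floor. All 4 CXC chemokines had a higher value with cytarabine as deposited, with IL-8 turning once the bright proteins are centred, and 1 of the 3 with a ratio passed 1.5-fold. Over all proteins, 66.7% were higher by sign and 17.6% of those with a ratio were higher past 1.5-fold. Their summed signal was 1.44 with cytarabine and 1.13 with PBS.

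Among the 4 CC chemokines none passed 1.5-fold. MCP-3 (CCL7), the dim member that draws monocytes and eosinophils, read 0.00313 with cytarabine, under the floor, and 0.0108 with PBS, just above it. As deposited, MCP-3 was the one of the 4 with a lower value, and MCP-1 joins it once the bright proteins are centred. The CC chemokines summed to 1.21 with cytarabine and 0.994 with PBS. The 8 chemokines of both families made up 60.8% of the signal with cytarabine and 50.1% with PBS. That direction rests on IL-6: of the sum without it, they made up 67.5% with cytarabine and 70.5% with PBS. The median log2 ratio of the 7 with a ratio was 0.31, beside 0.26 for all 17 proteins.

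Of the inflammatory cytokines, IL-1-beta, a product of activated monocytes that is cut from its precursor by caspase-1, read 0.00993 with cytarabine and 0.0174 with PBS. Its 1.75-fold lower value rests on a reading at the floor. With TNF-alpha and IL-6 the 3 members summed to 1.31 with cytarabine and 1.71 with PBS, with 1 member higher and 2 lower past the limit. Their sum therefore followed IL-6 and not TNF-alpha.

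The cytokines that share the common beta chain of the receptor did not run one way. GM-CSF, which sustains the growth of monocytes and granulocytes, read 0.0634 with cytarabine and 0.0468 with PBS. IL-3, a growth factor of early blood progenitors, read 0.0328 with cytarabine and 0.0193 with PBS, 1.69-fold higher. IL-5, which acts on eosinophils, read 0.0123 with cytarabine and 0.0741 with PBS, 6.02-fold lower, and ranked 15 with cytarabine and 9 with PBS. The IL-5 signal was 0.194 times that of GM-CSF with cytarabine and 1.58 times with PBS. The genes of GM-CSF, IL-3, IL-5 and IL-13 (CSF2, IL3, IL5 and IL13) all lie on chromosome 5. IL-13 was below 0 on both arrays, at -0.00222 with cytarabine and -0.00519 with PBS. G-CSF, the neutrophil growth factor, read -0.00231 with cytarabine and -0.000907 with PBS.

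Cytokines of the common gamma chain were dim. IL-7, a growth factor of lymphocytes that stromal cells make, read 0.0162 with cytarabine and 0.0347 with PBS, 2.15-fold lower. IL-2, the T cell growth factor, read 0.0131 with cytarabine and -0.000412 with PBS, which is at least 1.32-fold higher and did not pass the limit. IL-15, which sustains NK cells, read -0.00337 with cytarabine and -0.00421 with PBS.

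Lymphocyte cytokines were taken as signs of another cell type. IL-2, IL-5, IL-13 and IFN-gamma summed to 0.0560 with cytarabine and 0.101 with PBS, which is 1.29% of the signal with cytarabine and 2.39% with PBS. The lower sum rests on IL-5: without it the other 3 summed to 0.0437 with cytarabine and 0.0272 with PBS. IFN-gamma, the cytokine of T and NK cells that activates macrophages, read 0.0328 on both arrays. The gap in the sum without IL-5 therefore comes from IL-2 and IL-13, whose PBS values were below 0 and so under the floor. Of the 3 with a ratio, 1 was lower (IL-5) and none higher past the limit. The products that monocytes are known for, TNF-alpha, IL-1-beta, IL-8 and MCP-1, summed to 2.29 with cytarabine and 1.67 with PBS, although IL-1-beta was lower. Without TNF-alpha they summed to 1.42 with cytarabine and 1.2 with PBS, a ratio of 1.18. Centring the bright proteins multiplies the PBS values by 1.22, under which this smaller sum would turn to lower with cytarabine. IL-6, which monocytes release too, was added after its values were seen. With IL-6 and TNF-alpha both included, the sum was 2.72 with cytarabine and 2.89 with PBS, so the direction rests on that choice. Secreted proteins do not define a cell type, so the label of the line was not checked further.

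Of the 10 NF-kB targets of the panel, 9 had a ratio. TNF-alpha and GRO-alpha were higher past the limit, IL-6 and IL-1-beta lower, and the other 5 (GRO, IL-8, MCP-1, RANTES and GM-CSF) did not reach it, while G-CSF was under the floor. The calls are 44.4% of the 9 targets with a ratio, near the 41.2% of all 17 proteins. By the sign of the deposited values, 7 of the 10 were higher with cytarabine, beside 7 of the 11 proteins not on the list. The sign turns for IL-8 and MCP-1 with the bright proteins centred. It also counts proteins under the floor on both arrays: G-CSF, lower, on the list, and MIG, IL-15 and IL-13, higher, off it. The median log2 ratio was 0.31 for the 9 targets with a ratio and 0.062 for the 8 others with one. The signals of the 10 targets summed to 3.68 with cytarabine and 3.61 with PBS. The IL6 and CXCL1 windows printed above both hold the motif, and their proteins differed in opposite directions between the arrays.

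Of 9 proteins often counted in the senescence-associated secretory phenotype, the mix of factors that damaged cells with arrested growth release, GRO-alpha was higher past the limit, and IL-6, IL-7 and IL-1-beta were lower. The other 5 (IL-8, GRO, MCP-1, MCP-2 and GM-CSF) did not reach it. Here too 44.4% of the members with a ratio were called, near the 41.2% of all 17 proteins. The list summed to 3.0 with cytarabine and 3.32 with PBS. Its median log2 ratio was 0.26, the same as that of all 17 proteins with a ratio, because MCP-1 is the middle protein of both.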

How the data were processed

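Media of U937 vector cells were labelled with biotin and read on protein arrays, per the labels. The table that the authors deposited holds intensities for 23 protein and 2 control rows. Since its negative control reads 0 and its positive control 1 on every array, the deposited intensities were taken as background-subtracted signals relative to the positive control. The sources used here name no scanner or software and do not say whether spots were averaged. Arrays have no read depth; 1 array per group limits the precision.

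The members and lists were chosen with earlier results of these data known. Values were used as deposited. The floor was the 25th percentile of 92 protein values, and ratios, ranks, differences and shares were computed with Python 3.11.15, pandas 2.3.3 and NumPy 2.4.6, with figures in matplotlib 3.10.9. Simulated data with known changes, put into the PBS values without noise, were used to check the arithmetic of the ratio calculation. Only proteins well above the floor were scored, so the check does not cover array error or signals near the floor. No test was possible with 1 array a side. All 21 proteins were named with both intensities, and ranks, differences and ratios were printed for some of them. Gene symbols were assigned by protein name, and all 22 were found in RefSeq's table. Protein sequences planned for display were not used here. Alternatives were array scalings, thresholds, floors and left-out proteins; leaving out IL-6, IL-6 with TNF-alpha, or proteins under the floor, and changing the members of list sums, was chosen after seeing the data.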

Additional observations from a re-analysis of the deposited data

Results flagged for a closer look

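The shared values of the identical rows TGF-beta and TNF-beta, which are not among the 21 proteins compared, read 0.0198 with cytarabine and 0.00764 with PBS. They drew attention as a signal outside the proteins compared that lay above its level in the PBS sample. Counted once as a further protein, the row would be at least 2.002-fold higher with cytarabine and would give 4 higher and 4 lower among 18 ratios. The difference of 0.0122 is within the range of the dim proteins.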

How the results depend on the processing

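Scaling the PBS array to the median or the total of the cytarabine array left all 17 protein ratios on their side of 1.5-fold (log2 shifts of 0.083 and -0.036). The log2 ratios of GRO-alpha (2.62) and IL-2 (0.40) did not shift under any scaling, because their PBS values stayed under the floor. Setting the median log2 ratio of the bright proteins to 0 ended the call of IL-3 (0.48), leaving 2 higher and 4 lower. A floor of 0.02 left 14 ratios, without IL-1-beta, IL-2 and MCP-3, all on their side; GRO-alpha was then at least 3.04-fold higher and IL-5 at least 3.70-fold lower. With a threshold of 2-fold, 1 protein was higher and 3 lower, and with 1.2-fold 8 were higher and 4 lower. Among proteins at or above 0.1, 1 was higher and 1 lower past 1.5-fold, 7 of 8 were higher by sign, and the rank correlation was 0.595 against 0.904 over all 21; it was 0.887 with the identical rows counted once, which gave 4 higher and 4 lower proteins, and 0.928 without GRO-alpha. The ratio of summed intensities, 1.02 as deposited, was 1.30 without IL-6 and 1.19 without IL-6 and TNF-alpha. In alternatives chosen after seeing the data, ratios of cytarabine over PBS turned for 3 sums over lists: the lymphocyte cytokines (0.552) without IL-5 (1.60), the monocytic products (1.37) with IL-6 added (0.940), and the chemokine share (1.21) of the sum without IL-6 (0.958). The ratio of 1.60 comes from IL-2 and IL-13, whose PBS values were below 0. Sums over lists were not recomputed under the array scalings. No replicate could be left out, and no paired analysis was possible because each group has 1 sample. Signals near the floor limit the dim proteins.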
